A study of Mus musculus with 39 samples.

Results

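The transcriptome of quadriceps muscle was compared between mice that had been fasted for 16 h and mice that had been fed, all of which had eaten a high-fat diet as juveniles. Members were the libraries labelled as quadriceps with a high-fat diet (HFD, 45% of calories from fat) during weeks 6 to 7 of life, which were 10 of the 39 libraries of the series: 6 from fasted and 4 from fed mice. All were male C57BL/6J mice, aged 22 weeks at tissue collection. Before and after the juvenile diet they ate chow, and from week 10 every mouse in the study ate the HFD, so the fed mice here were fed an obesogenic diet and the contrast is one of feeding state on that background. A further 10 quadriceps libraries, 6 fasted and 4 fed, came from mice that had eaten a lower-fat control diet (CD, 10% fat calories) in weeks 6 to 7 and the same HFD as adults, and served to ask whether the fasting response differed with the juvenile diet. Nothing in the labels states that each library is a separate mouse, so p-values measure the spread between libraries.

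Skeletal muscle is the main protein store of the body. In fasting, falling insulin and rising glucocorticoid free FoxO transcription factors to enter the nucleus and raise the genes of ubiquitin ligases and autophagy, so that amino acids are released for the liver. At the same time fatty acids, acting in part through PPAR receptors, take the place of glucose as fuel, and pyruvate dehydrogenase is switched off by its kinases. Insulin, growth factors and feeding have the opposite influence, through mTORC1, SREBP and the synthesis of matrix and lipid.

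Poly-A RNA had been sequenced on an Ion Torrent Proton. Between 7132441 and 14993394 reads per library were counted to genes, and fasted libraries ranged more widely than fed ones (11061256 to 11325600). Levels are given as CPM (a gene's count as a share of the TMM-scaled library size), and changes as log2 fold change, fasted over fed. The standard error (SE) beside a change was derived from the edgeR fit, as its size over the square root of the quasi-likelihood F. Intervals of differences treat this SE as normal and are too narrow for so few libraries. A gene was called changed when its adjusted p, the Benjamini-Hochberg value of the edgeR quasi-likelihood test over all 12213 tested genes, was under 0.05. Fasted library 4 stood apart, with 20.4% of its listed reads counted and 291600 CPM (plain library size) in Gm42418, a gene that overlaps ribosomal RNA, against 69770 to 237500 CPM in the other 5 fasted and 79290 to 142400 CPM in the fed libraries. Fasted library 6 lay at the other end, with 39.9% counted. In a principal component analysis of the 10 libraries, the first component (35.9% of the variance) put the fasted libraries between -34.15 and -19.2 and the fed ones between 32.43 and 38.31. The second (17.9%) separated fasted libraries 5 and 6 and fed libraries 3 and 4, which carry the last 4 barcode numbers of the HFD samples, from the other 6, with both feeding states on each side. The fast-fibre markers (Myh4, Myh1, Actn3, Pvalb and the rest) summed to 167100 to 241900 CPM in fasted and 208400 to 265100 CPM in fed libraries, as the quadriceps label requires, and markers of epididymis, the other tissue's neighbour, to at most 0.400 CPM.

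In fasted quadriceps 1434 genes (11.7% of those tested) were higher and 1185 (9.70%) were lower than in fed quadriceps, 21.4% of all tested genes together. A change of more than 2-fold was seen in 389 of the higher (3.19% of those tested) and 357 of the lower genes (2.92%), and of more than 4-fold in 70 and 53. The 6 fasted libraries all lay above the 4 fed libraries for 1065 genes (8.72%) and all below them for 816 (6.68%). The median log2 fold change over all tested genes was -0.02. Without fasted libraries 4 and 6, 1285 genes were higher and 858 lower.

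**Figure D1:**
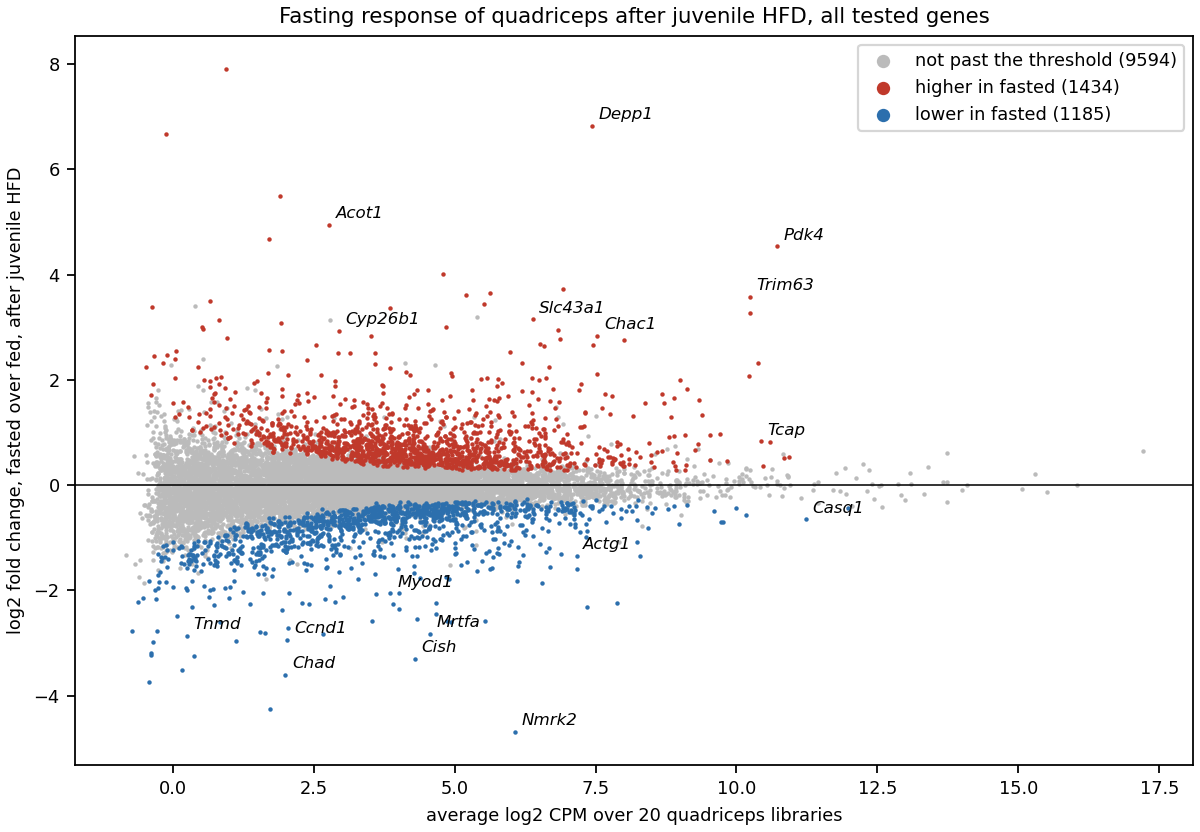
Log2 fold change (fasted over fed, vertical axis) against average log2 CPM (horizontal axis) for every tested gene after juvenile HFD; red points are the 1434 genes called higher, blue points the 1185 called lower, grey points the rest. Depp1, Pdk4 and Trim63 lie far above the cloud at medium to high level, and Nmrk2, at -4.69, lies at the lower edge.

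Among called protein-coding genes that averaged 2 or more on the log2 CPM scale and whose groups did not overlap, the largest rise was in Depp1 (chr6:116650609-116652794, plus strand), a FoxO-induced gene linked to autophagy. Depp1 lay between 238 and 411 CPM in the fasted libraries (median 308), against 4.16, 2.07, 2.40 and 2.09 CPM in the fed libraries, a log2 fold change of 6.83 ± 0.43 (SE, adjusted p = 3.34e-09). That the groups did not overlap was a condition of this choice. Reads of Depp1 and Rassf4, which overlap on opposite strands, cannot be told apart without the strand setting, which is not given in the sources used here; Rassf4 averaged 15.5 CPM in fasted and 2.71 CPM in fed libraries. Next in size came the acyl-CoA thioesterase Acot1 (4.95 ± 0.80) and then Pdk4, the kinase that shuts down pyruvate dehydrogenase (4.54 ± 0.46). Acot1 had only 4, 4, 7 and 1 reads in the fed libraries (0.354, 0.345, 0.622 and 0.0872 CPM), so the size of its rise is uncertain. Acot2 (3.66 ± 0.38) is a near-identical neighbour of Acot1 on chromosome 12, and the separate values of these 2 genes are uncertain. Further genes among the 15 largest rises were the arrestin-like Arrdc2 (3.73 ± 0.31), the transcription factor Cebpd (3.61 ± 0.32), Slc25a34, a mitochondrial carrier (3.01 ± 0.44), and Cyp26b1, which degrades retinoic acid (2.93 ± 0.60).

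Among the genes chosen in the same way, the largest fall was in Nmrk2 (muscle nicotinamide riboside kinase), which makes NAD from nicotinamide riboside. Nmrk2 lay between 2.21 and 11.3 CPM in fasted libraries (median 6.11), against 173, 104, 137 and 199 CPM in fed libraries, with a log2 fold change of -4.69 ± 0.46 (adjusted p = 1.23e-06). Nmrk2 overlaps Atcayos on the opposite strand, which averaged 77.6 CPM in fasted and 49.8 CPM in fed libraries, and their reads cannot be told apart here. Cebpd, named above, overlaps an opposite-strand gene too. Among the genes described below, so do Ccnd1, Mrtfa, Npc1, Ucp3, Plin4, Ampd3, Rbl2, Glul, Chad and 6230400D17Rik, all with the same limit. Overlap was looked up only for the 110 genes selected by rule or choice, and not for the other genes described. The fall did not extend to the NAD list, in which 1 of 19 tested genes rose (Nadk2) and 1 fell (Nmrk2). Cish, a STAT5-induced inhibitor of cytokine signalling, lay between 2.22 and 11.9 CPM in fasted libraries (median 4.25), against 13.4, 47.1, 80.6 and 75.3 CPM in fed libraries (-3.31 ± 0.69). No overlap was a condition of the choice, and fed library 1 was close to fasted library 6. The other large falls included Ccnd1 (cyclin D1, -2.94 ± 0.25), Tfrc (the transferrin receptor, -2.44 ± 0.24), Tnfaip2 (-2.59 ± 0.17), Ky (a muscle protein of the Z-disc, -2.31 ± 0.37) and Scd2 (a fatty acid desaturase, -2.26 ± 0.18).

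**Figure D2:**
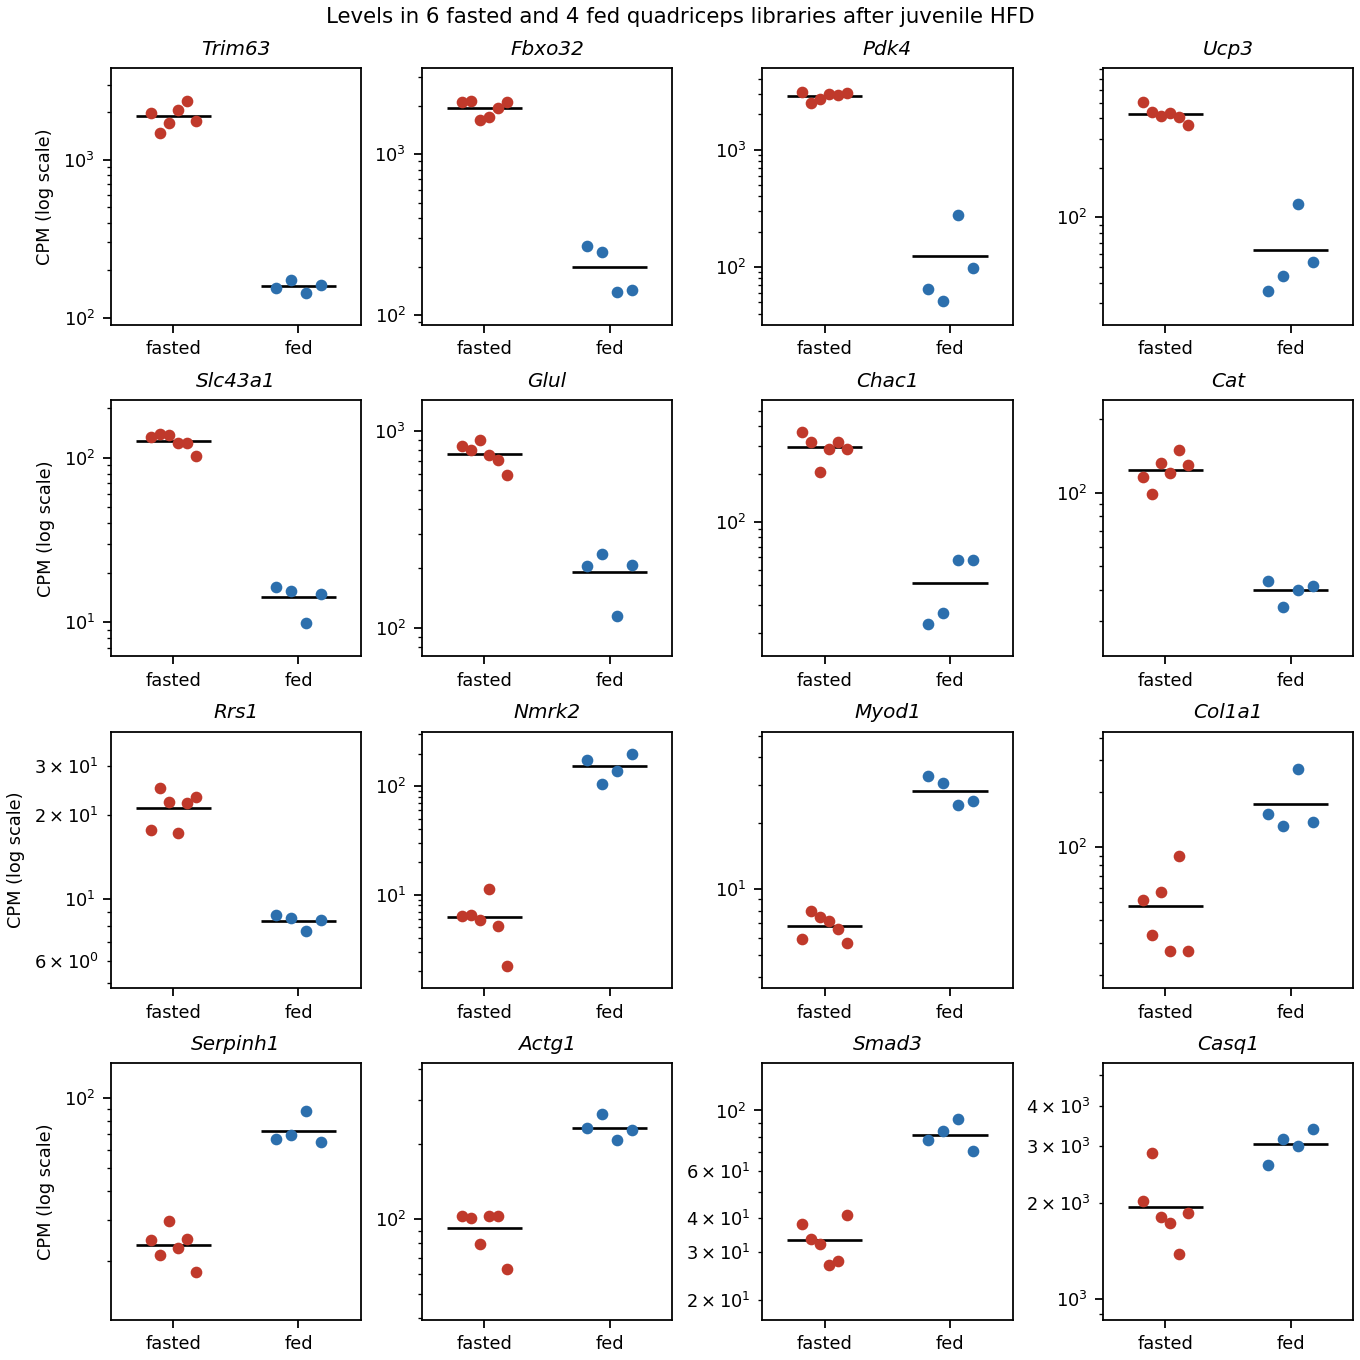
CPM (log scale) of 16 genes in the 6 fasted (red, left) and 4 fed (blue, right) libraries after juvenile HFD; each point is a library and each bar a group mean. In 15 panels the groups do not overlap, and in Casq1 fasted library 2, at 2850 CPM, lies among the fed libraries. Genes from the 15 largest rises and falls were chosen for having no overlap, so its absence there is no result.

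For gene groups, 35 lists were read against the shares of all tested genes called higher (11.7%) and lower (9.70%). The lists were chosen with earlier results of these data known. Some genes, such as Pdk4, Angptl4, Cdkn1a and Sesn1, stand in several lists. The shares are therefore descriptions and not separate tests. List members given below by a fold change alone, and Plin5, Glul, Igf1, Irs1, Irs2, Igf1r, Col1a1, Hmox1, Myc, Apln, Foxo1, Chac1, Tnmd, Chad, Nfe2l2 and Casq1, were picked after their values were seen; the others follow a fixed rule.

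**Figure D3:**
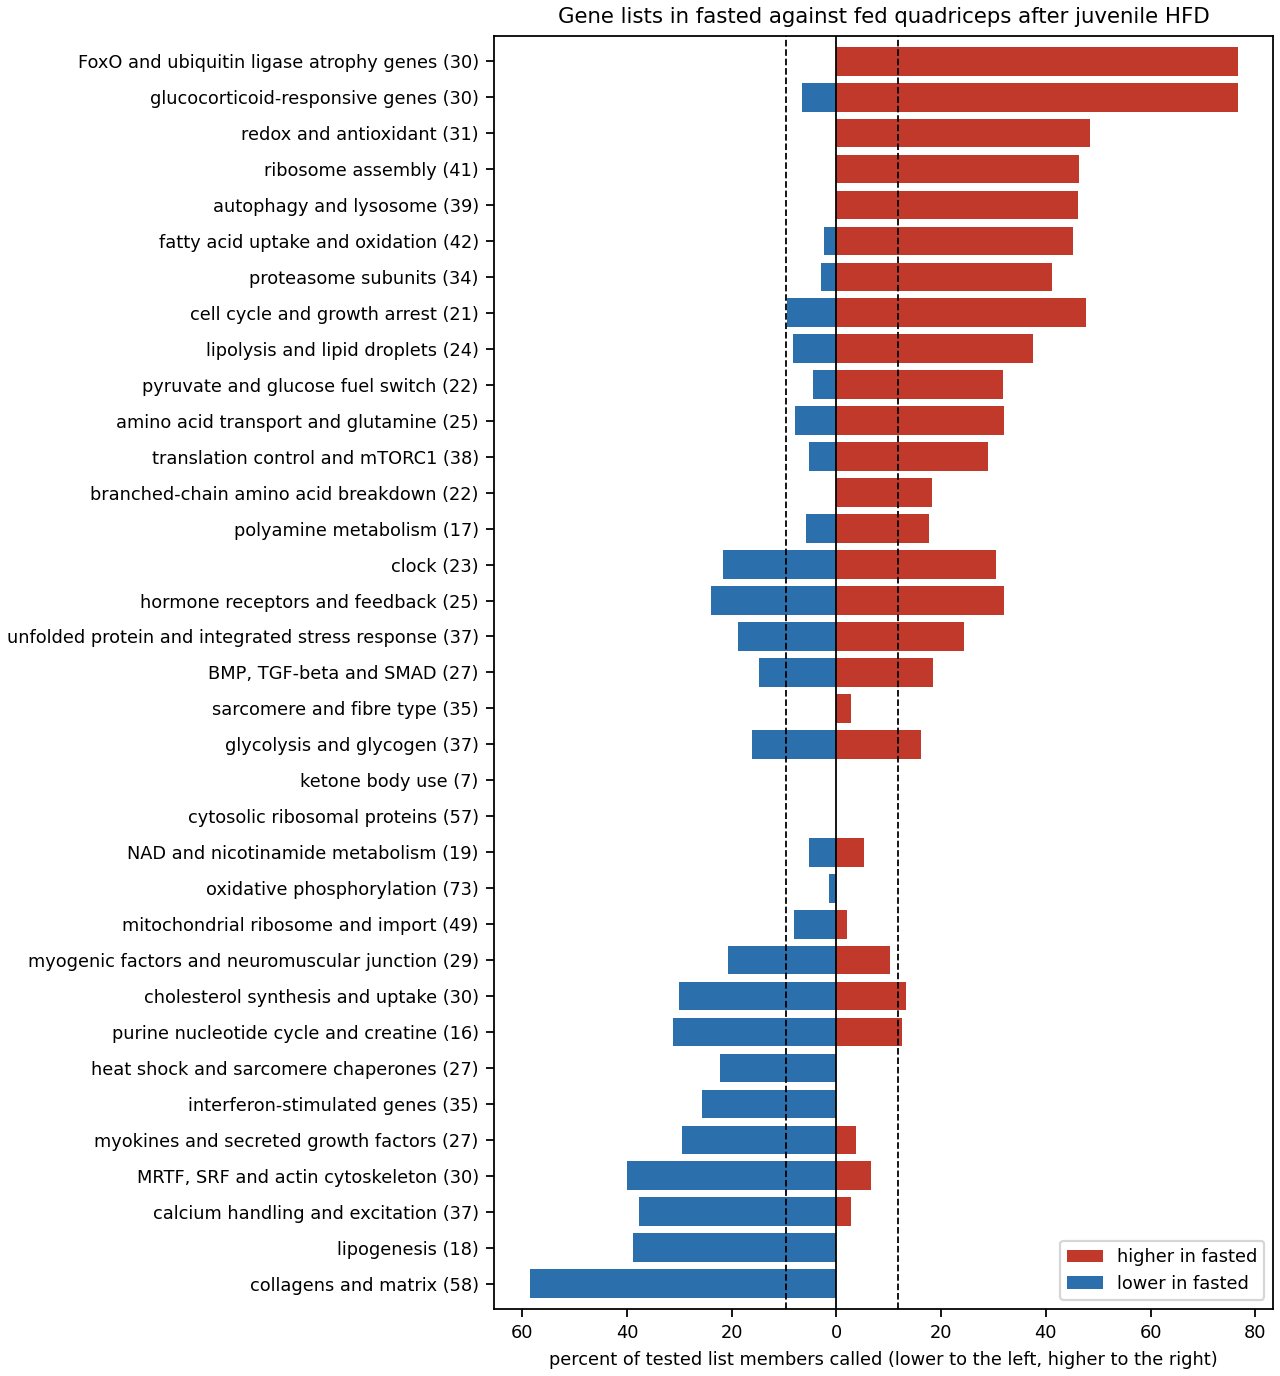
Percent of the tested members of each of 35 gene lists called higher (red, right) or lower (blue, left) in fasted than in fed quadriceps, with the number tested in parentheses; dashed lines mark the shares over all tested genes, 11.7% and 9.70%. FoxO and glucocorticoid lists reach 76.7% higher, and collagens and matrix 58.6% lower.

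Genes of muscle protein breakdown rose in fasted quadriceps. Of 30 FoxO and ubiquitin ligase atrophy genes, 23 were higher and none lower, with a median log2 fold change of 1.2. Before adjustment (p under 0.05), and by DESeq2 and limma voom, the lower count was 0 too. Trim63 (MuRF1, chr4), a ubiquitin ligase of sarcomere proteins, lay between 1482 and 2374 CPM in fasted libraries (median 1871), against 155, 174, 144 and 162 CPM in fed libraries, a rise of 3.58 ± 0.20 (adjusted p = 1.15e-13). Fbxo32 (atrogin-1), the other hallmark ligase of atrophy, lay between 1622 and 2129 CPM in fasted libraries (median 2016), against 268, 245, 139 and 143 CPM in fed libraries (3.28 ± 0.22). Fed libraries 1 and 2 were higher than 3 and 4 for Fbxo32 but not for Trim63. Klhl38 (2.95 ± 0.29) and the ligase Fbxo30 (1.64) rose as well. Both Foxo1 (1.09 ± 0.18) and Foxo3 (1.27) rose. Mstn, the growth inhibitor myostatin, had a log2 fold change of 0.14 and Fbxo40, a ligase of IRS1, one of 0.14, and neither passed the test.

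The promoters of Trim63 and of Klf9, a glucocorticoid-induced transcription factor described below, are shown because both genes rose and each holds a FoxO motif. The letters TGTTTAC were searched on both strands in windows of 250 bases before to 50 bases after each start (RefSeq, GRCm38.p6), and 82 of the 110 genes selected by rule or choice had a window. The motif stood in 4.15% of the 1469 windows of 1140 higher genes, 1.77% of the 1185 windows of 883 lower genes, 2.58% of the windows of all tested genes and 3.65% of all 32851 windows. The E-box CACGTG stood in 11% of windows of higher genes, 7.76% of lower genes, 10.1% of tested genes and 7.15% of all windows, and the NF-Y motif CCAAT in 39.5%, 35.2%, 37% and 37.4%. For the CRE, TGACGTCA, the shares were 3%, 2.11%, 3% and 1.79%, and for the D-box, TTATGTAA, 0.408%, 0.506%, 0.484% and 0.938%; the glucocorticoid receptor palindrome was in 3 windows of all. None of these overlaps the FoxO motif in the windows shown. The 250 bases before each start are printed, with the motif in capitals, beginning 194 bases before the start in Trim63 and 100 bases before it, on the opposite strand, in Klf9.
Trim63, chr4:134314870-134315119, plus strand: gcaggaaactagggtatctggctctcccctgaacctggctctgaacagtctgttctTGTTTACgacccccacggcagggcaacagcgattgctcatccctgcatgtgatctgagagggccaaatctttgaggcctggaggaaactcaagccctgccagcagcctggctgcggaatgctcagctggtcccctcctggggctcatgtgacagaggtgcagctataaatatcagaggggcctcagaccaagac
Klf9, chr19:23140976-23141225, plus strand: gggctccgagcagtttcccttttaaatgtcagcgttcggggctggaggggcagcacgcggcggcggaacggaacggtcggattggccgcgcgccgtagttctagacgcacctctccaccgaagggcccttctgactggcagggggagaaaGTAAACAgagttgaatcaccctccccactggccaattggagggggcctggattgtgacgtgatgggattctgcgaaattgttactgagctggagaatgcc

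Proteasome subunits moved by less. Of 34 tested, 14 were higher and 1 lower, with a median of 0.24; without fed library 1, 9 were higher. Psmd11 and Psmd4, of the regulatory particle, rose by 0.88 ± 0.14 and 0.60 ± 0.12, and Psmd11 spanned 91.5 to 140 CPM in fasted libraries, against 47.2, 58.0, 69.8 and 61.8 CPM in fed libraries. The lower one was Psme2, a subunit of the interferon-induced activator (-0.50). Its call was lost in DESeq2, in the fit of the 10 libraries alone and without any 1 of 7 libraries. It was also lost with the spelling of sample titles or the last 4 HFD barcode numbers as a covariate, and without fasted libraries 4 and 6. Autophagy and lysosome genes were higher in 18 of 39 cases and lower in none; at an unadjusted p under 0.05 there were 2 lower members, and limma voom called 1. Gabarapl1, an ATG8 protein of the autophagosome, lay between 112 and 187 CPM in fasted libraries (median 150), against 27.3, 23.1, 22.8 and 18.2 CPM in fed libraries (2.68 ± 0.19). Npc1, which exports cholesterol from lysosomes, lay between 264 and 302 CPM in fasted libraries (median 278), against 58.2, 67.5, 65.5 and 67.5 CPM in fed libraries, among the tightest separations of the data (2.11 ± 0.12, adjusted p = 1.15e-13). Ulk1 (1.70), Atg13 (1.02), Atg14 (1.02) and Sqstm1 (0.96) rose, while Becn1 (-0.27), Atg5 (0.09) and Tfeb (0.08) did not pass the test.

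Glucocorticoid-responsive genes rose in 23 of 30 cases and fell in 2, with a median of 1.44. Fkbp5, a chaperone partner of the glucocorticoid receptor, lay between 124 and 174 CPM in fasted libraries (median 144), against 42.2, 48.5, 42.3 and 30.7 CPM in fed libraries (1.83 ± 0.17, adjusted p = 3.34e-09). Klf9 lay between 117 and 199 CPM in fasted libraries (median 140), against 48.6, 54.0, 47.5 and 63.3 CPM in fed libraries (1.46 ± 0.14). Ddit4 (REDD1), an inhibitor of mTORC1, rose by 3.44 ± 0.49 but varied among fasted libraries, between 28.5 and 127 CPM. The metallothioneins Mt2 (2.54) and Mt1 (1.81) rose too. Bcl6 (-1.09) and the kinase Sgk1 (-0.94) fell against the list's direction, 1 of these 2 calls being lost without any 1 of 5 libraries (fasted 1 and 2; fed 2, 3 and 4), and the receptor itself, Nr3c1, had a log2 fold change of -0.13 and did not pass the test.

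Receptors and feedback genes of insulin and cytokines moved both ways, 8 of 25 higher and 6 lower. Irs2 (0.99 ± 0.18), Insr (0.69) and Igf1r (1.62 ± 0.22), the insulin signalling adaptor and the insulin and IGF-1 receptors, rose, while Irs1 fell. Irs1 lay between 25.6 and 38.6 CPM in fasted libraries (median 28.9), against 56.2, 97.9, 148 and 61.6 CPM in fed libraries (-1.59 ± 0.23, adjusted p = 2.56e-05). Il6ra, the ligand-binding chain of the IL-6 receptor, rose to between 15.5 and 26.1 CPM in fasted libraries (median 22.4), against 2.66, 2.76, 1.6 and 1.22 CPM in fed libraries (3.36 ± 0.35), and its signalling partner Il6st rose by 0.50. Igfbp5, an IGF-binding protein, lay between 66.0 and 132 CPM in fasted libraries (median 93.5), against 347, 646, 422 and 408 CPM in fed libraries (-2.25 ± 0.22). Socs3 (-1.36) and Grb10 (-0.60), inhibitors of cytokine and insulin receptors, fell. The call on Igf1 (-1.09 ± 0.38, adjusted p = 0.0433) was lost without any 1 of 6 libraries (fasted 1, 3, 4 and 6; fed 3 and 4). Fed library 3 stood at 15.1 CPM against 3.88 to 6.45 CPM in the other fed libraries, and without it the change was -0.52 with adjusted p = 0.314.

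Of 22 genes of the pyruvate and glucose fuel switch, 7 rose and 1 fell. Pdk4 lay between 2495 and 3080 CPM in fasted libraries (median 2960), against 65.0, 51.4, 279 and 98.4 CPM in fed libraries (4.54 ± 0.46, adjusted p = 1.75e-06). The fasted libraries were within a narrow band, and fed library 3 was the highest of the fed ones. Pdp2, a phosphatase that opposes the kinase, rose alongside, between 13 and 17.9 CPM in fasted libraries (median 16.5), against 3.63, 2.50, 1.69 and 3.05 CPM in fed libraries (2.51 ± 0.23), whereas the other phosphatase, Pdp1, fell (-0.48), a call lost without any 1 of 5 libraries (fasted 1 and 5; fed 1, 2 and 4). Txnip, an inhibitor of glucose uptake, rose by 1.34 ± 0.12, and the RabGAPs Tbc1d1 (1.2) and Tbc1d4 (0.73), which hold glucose transporters inside the cell, rose as well. So did the glucose transporters Slc2a3 (0.78) and Slc2a1 (0.76). The insulin-regulated transporter Slc2a4 (GLUT4) had a log2 fold change of 0.04, Hk2 (hexokinase 2) one of -0.24 and Gys1 (glycogen synthase) one of 0.10, and none passed the test. Across the glycolysis and glycogen list, 6 of 37 genes rose and 6 fell, with a median of -0.03. Those that rose included Fbp2, the muscle fructose bisphosphatase (0.97 ± 0.14), and the fructose 2,6-bisphosphate enzymes Pfkfb3 (1.30) and Pfkfb4 (0.67 ± 0.14), and those that fell included Ppp1r3c, a glycogen-targeting subunit (-0.98), and Ldha (-0.44).

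Fatty acid uptake and oxidation genes rose in 19 of 42 cases and fell in 1, with a median of 0.43. Ucp3, a mitochondrial carrier of muscle that follows fatty acid supply, lay between 365 and 505 CPM in fasted libraries (median 422), against 35.4, 43.7, 121 and 53.6 CPM in fed libraries (2.75 ± 0.28, adjusted p = 4.98e-07). Angptl4, a secreted inhibitor of lipoprotein lipase, lay between 31.1 and 67.1 CPM in fasted libraries (median 43.4), against 2.39, 1.64, 5.78 and 1.57 CPM in fed libraries (4.01 ± 0.43). In both genes fed library 3 was the highest fed library, as it was for Pdk4. Mlycd, which removes malonyl-CoA and so releases carnitine palmitoyltransferase, rose by 1.38 ± 0.14, and the importers Cd36 (0.98) and Slc27a1 (1.40), the carnitine enzymes Cpt1a (1.12) and Cpt1b (0.50) and the carrier Slc25a20 (0.70) rose. The one gene that fell was Ppargc1a, the mitochondrial coactivator PGC-1 alpha (-0.88). Acadm (0.12), Hadhb (0.30) and Acadvl (0.34) of the oxidation spiral did not pass the test. Oxidative phosphorylation gave few calls: of 73 subunit genes none rose, also at an unadjusted p under 0.05 and by the other tools, and 1 fell (Ndufb7, -0.45), while limma voom called 8 lower and DESeq2 2, and without fed library 2 edgeR called 10.

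Of 24 genes of lipolysis and lipid droplets, 9 rose and 2 fell. Pnpla2 (ATGL), the first triglyceride lipase, lay between 406 and 739 CPM in fasted libraries (median 545), against 214, 171, 162 and 143 CPM in fed libraries (1.74 ± 0.18, adjusted p = 2.72e-08). Plin4 and Plin5, droplet coat proteins, rose by 1.83 ± 0.14 and 2.03 ± 0.41, and Lipe, the hormone-sensitive lipase, by 1.32. Genes of glycerolipid synthesis in the list, Lpin2 (1.62), Gpat3 (1.41), Lpin1 (0.93) and Gpam (0.58), rose too. G0s2, an inhibitor of ATGL, fell (-1.37), and without any 1 of 4 libraries (fasted 1 and 6; fed 1 and 4) 1 of these 2 falls was left. Adipocyte transcripts were uneven: Retn, Cfd, Adipoq and Plin1 together ran between 8.68 and 427 CPM in fasted libraries (highest in library 5), against 27.6 to 72.4 CPM in fed libraries, and none of the 4 was called by edgeR, at an unadjusted p under 0.05, by DESeq2 or by limma voom. With that sum as a covariate, 10 genes of the lipolysis list were higher. Ketone body genes gave no call in 7 by edgeR, with 1 higher before adjustment (p under 0.05) and by DESeq2, and none by limma voom.

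Of 18 lipogenesis genes, 7 were lower and none was higher (none also before adjustment and by DESeq2, 1 by limma voom). Scd2 lay between 3.66 and 8.05 CPM in fasted libraries (median 5.89), against 31.2, 34.0, 20.9 and 24.9 CPM in fed libraries (adjusted p = 3.32e-10). Pnpla3 (-1.64 ± 0.23), an SREBP target, the desaturases Fads2 (-1.35) and Fads1 (-0.97), and the regulators Srebf1 (-0.87) and Mlxipl (-0.59) fell, whereas Fasn (0.25), Acly (-0.28) and Scd1 (1.30) did not pass the test. Cholesterol genes were lower in 9 of 30 cases and higher in 4. Among them the synthesis gene Msmo1 (-1.11) fell. Those that rose were Npc1, the exporter Abca1 (1.16), the ubiquitin ligase Mylip (0.79) and Fdft1 (squalene synthase, 1.15 ± 0.13), whose reads overlap Ctsb on the opposite strand; Ctsb averaged 246 CPM in both groups.

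The smallest adjusted p of all belonged to an amino acid transporter. Slc43a1 (LAT3), a carrier of large neutral amino acids that lets them out as well as in, lay between 102 and 140 CPM in fasted libraries (median 128), against 16.5, 15.6, 9.95 and 14.8 CPM in fed libraries (3.15 ± 0.16, adjusted p = 3.58e-14). Slc7a2, a cationic amino acid transporter, rose by 2.24 ± 0.20. Glul (glutamine synthetase), which makes the glutamine that muscle exports, lay between 598 and 895 CPM in fasted libraries (median 772), against 206, 238, 114 and 208 CPM in fed libraries (2 ± 0.23). In all, 8 of 25 genes of amino acid transport and glutamine rose and 2 fell (Slc38a2 and Slc38a4, each -0.41), both calls being lost without fasted library 3, fasted library 4 or fed library 3. Breakdown of branched-chain amino acids moved little: Dbt (0.66 ± 0.17), Bckdha (0.53 ± 0.12), Aldh6a1 (0.41) and Hibadh (0.33) rose, 4 of 22, and none fell, also before adjustment and by both DESeq2 and limma voom. Without fed library 3 or fasted library 6, 2 of the list rose. Odc1, the first enzyme of polyamine synthesis, rose by 1.46 ± 0.30, with fed library 3 at 177 CPM overlapping the lowest fasted library, at 173 CPM.

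Some brakes on translation rose, and so did many ribosome assembly factors. Of 38 genes of translation control and mTORC1, 11 rose and 2 fell. Eif4ebp1 (4E-BP1), which blocks cap-dependent initiation, lay between 112 and 168 CPM in fasted libraries (median 138), against 35.6, 35.2, 32.6 and 31.3 CPM in fed libraries (2.03 ± 0.14, adjusted p = 2.70e-11). Sesn1, a leucine-sensing inhibitor of mTORC1, lay between 92.4 and 150 CPM in fasted libraries (median 118), against 23.3, 31.4, 29.2 and 32.6 CPM in fed libraries (2.03 ± 0.17). Eif4e, the cap-binding protein that 4E-BP1 holds, fell (-0.57), as did Eef2k (-0.39), but 1 of these 2 calls was lost without any 1 of 5 libraries (fasted 3, 4 and 5; fed 1 and 2). Mtor rose (0.39). Ribosome assembly factors rose in 19 of 41 cases and fell in none, also before adjustment (p under 0.05) and by DESeq2 and limma voom, with a median of 0.35. Rrs1, a factor of the large subunit, lay between 17.2 and 24.9 CPM in fasted libraries (median 22.3), against 8.76, 8.53, 7.64 and 8.37 CPM in fed libraries (1.36 ± 0.16, adjusted p = 2.45e-07), and Wdr43 rose by 1.04 ± 0.13. Myc, a driver of these genes, rose by 1.18 ± 0.25, between 3.64 and 6.29 CPM in fasted libraries, against 1.86, 2.58, 1.6 and 2.18 CPM in fed libraries. The ribosomal proteins themselves gave no call among 57 in edgeR, with a range of -0.29 to 0.17; at an unadjusted p under 0.05, 2 were lower, and limma voom called 2 lower and DESeq2 none.

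Stress genes split. Of 37 genes of the unfolded protein and integrated stress responses, 9 rose and 7 fell. Chac1, which degrades glutathione, lay between 206 and 365 CPM in fasted libraries (median 302), against 22.8, 26.9, 57.4 and 57.8 CPM in fed libraries (2.84 ± 0.59, adjusted p = 0.00221). Fed libraries 3 and 4 were higher than fed libraries 1 and 2. Ppp1r15a (GADD34), which restores translation by dephosphorylating eIF2 alpha, rose by 2.03 ± 0.18, and the sensor Ern1 (IRE1 alpha) by 1.08 ± 0.13. Lower in fasted quadriceps were Ddit3 (CHOP, -1.14) and chaperones and foldases of the endoplasmic reticulum, Manf (-1.03), Sdf2l1 (-0.96), Pdia4 (-0.68) and Hspa5 (BiP, -0.38). Amino acid synthesis targets of ATF4 did not pass the test, with Asns at -0.63 and Psat1 at 0.41. The promoter of Chac1 is shown for its ATF4 motif, TGATGCAA, on the opposite strand 193 bases before the start (in capitals). The motif stood in 0.749% of windows of higher genes, 0.591% of lower genes, 0.593% of tested genes and 0.895% of all windows.
Chac1, chr2:119350992-119351241, plus strand: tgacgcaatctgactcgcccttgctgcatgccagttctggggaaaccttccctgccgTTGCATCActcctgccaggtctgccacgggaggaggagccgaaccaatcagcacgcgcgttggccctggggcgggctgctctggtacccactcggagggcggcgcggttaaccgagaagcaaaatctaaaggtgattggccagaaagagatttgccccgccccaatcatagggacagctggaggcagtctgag

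Of 31 redox and antioxidant genes, 15 rose and none fell, also before adjustment and by both DESeq2 and limma voom. Cat (catalase) lay between 98.6 and 150 CPM in fasted libraries (median 125), against 43.6, 34.2, 40.2 and 41.6 CPM in fed libraries (1.64 ± 0.15, adjusted p = 2.30e-09). Nfe2l2 (NRF2), the factor that governs much of this list, rose by 1.11 ± 0.17, Hmox1 (heme oxygenase 1) by 1.89 ± 0.21, and the glutathione and thioredoxin genes Gclm (1.26), Srxn1 (1.5), Gsr (0.77) and Txnrd1 (0.59) rose with them. The superoxide dismutases Sod1 (0.27) and Sod2 (-0.18) and all 5 peroxiredoxins tested (-0.19 to 0.15) did not pass. Genes of the heat shock and sarcomere chaperone list went the other way, with 6 of 27 lower and none higher. None was higher before adjustment either, or by DESeq2 or limma voom. Hspa8 (HSC70), at 390 to 485 CPM in fasted libraries (median 443), against 469, 582, 999 and 867 CPM in fed libraries, fell by 0.73 on the log2 scale. Fed libraries 3 and 4 were the highest for Hspa8, and fed library 1 lay among the fasted libraries. The lower count was 3 without fed library 3 and 10 in limma voom.

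The clock list divided, 7 of 23 higher and 5 lower. Per1, a repressor of the clock that glucocorticoid also induces, lay between 52.9 and 107 CPM in fasted libraries (median 74.7), against 14.2, 15, 9.78 and 15.1 CPM in fed libraries (2.54 ± 0.25, adjusted p = 1.92e-07), and Cry2 rose by 1.14 ± 0.13. Bhlhe40 (-1.13), Hlf (-0.94) and Cry1 (-0.53) fell, and the core activators Clock (-0.36) and Arntl (0.37) did not pass the test. Time of collection is not given in the sources used here, and its part in these values was not tested. Among 21 cell cycle genes, 10 rose and 2 fell: the inhibitors Cdkn1a (1.6), Cdkn1b (0.82) and Rbl2 (1.53 ± 0.14) and the Gadd45 genes (0.93 to 2.33) rose, and Ccnd1 and the antiproliferative Tob1 (-1.17) fell. Ccnd1 lay between 0.547 and 1.44 CPM in fasted libraries (median 0.936), against 8.05, 7.58, 6.22 and 8.37 CPM in fed libraries (adjusted p = 1.00e-09).

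Of the 35 lists, collagens and other matrix genes had the largest share of members that fell. Of 58 tested, 34 were lower and none higher (none also before adjustment and by both DESeq2 and limma voom), with a median of -0.68, and 23 were lower without fasted libraries 4 and 6. Serpinh1 (HSP47), the collagen chaperone, lay between 17.9 and 29.7 CPM in fasted libraries (median 23.6), against 66.6, 69.6, 88.4 and 64.8 CPM in fed libraries (-1.62 ± 0.13, adjusted p = 2.13e-10). Col15a1, a collagen of basement membranes, lay between 9.43 and 20 CPM in fasted libraries (median 13.9), against 57.9, 51.2, 37.1 and 46.9 CPM in fed libraries (-1.75 ± 0.19). Col1a1, of the main fibrillar collagen, lay between 27.0 and 89.4 CPM in fasted libraries (median 42.0), against 152, 131, 270 and 138 CPM in fed libraries (-1.86 ± 0.38). Fibrillar (Col1a2, -1.56; Col3a1, -1.12), basement membrane (Col4a1, -0.62; Nid2, -0.73) and microfibrillar chains (Col6a1, -1.02; Col6a3, -1.45) were all among those that fell. The small proteoglycan Dcn (-0.38), the elastic fibre genes Fbn1 (-0.82) and Eln (-0.38) and Fn1 (-0.66) did not pass the test.

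These genes belong mostly to cells other than the fibre, and in bulk muscle fewer such cells and less RNA per cell cannot be told apart. Beside them, the summed tendon markers ran between 8.83 and 62.8 CPM in fasted libraries, against 90.4, 58.7, 292 and 89.4 CPM in fed libraries, and 5 of 6 tested tendon markers were lower. Fibro-adipogenic markers summed to between 587 and 1696 CPM in fasted and 1128 and 1483 CPM in fed libraries, with 4 of 10 lower (1 without fasted libraries 4 and 6, 7 without fasted library 5). Smooth muscle and pericyte markers (124 to 274 CPM in fasted, 214 to 262 CPM in fed libraries) were lower in 4 of 9 cases. Macrophage markers (29.7 to 132 CPM in fasted, 74.8 to 121 CPM in fed libraries) gave no call in 10 by edgeR, with 3 lower before adjustment (p under 0.05), 1 lower by DESeq2 and 4 by limma voom, and 5 lower in edgeR without fasted library 5. Endothelial markers summed to between 214 and 427 CPM in fasted and 259 and 312 CPM in fed libraries. By edgeR 1 of 10 was higher (Cldn5, 1.01) and none lower, while DESeq2 called 1 lower and limma voom 2. Fasted library 5 had the highest fibro-adipogenic, tendon and macrophage sums of the fasted libraries, and fed library 3 the highest tendon sum of all. The part of these markers in the fall of matrix genes was not tested. Without fed library 3, 30 matrix genes and 2 tendon markers were lower, the tendon gene Fmod (a collagen-binding proteoglycan, -2.60 ± 0.78) lost its call (-1.71, adjusted p = 0.152), and so did Chad (-2.18, adjusted p = 0.0528).

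**Figure D4:**
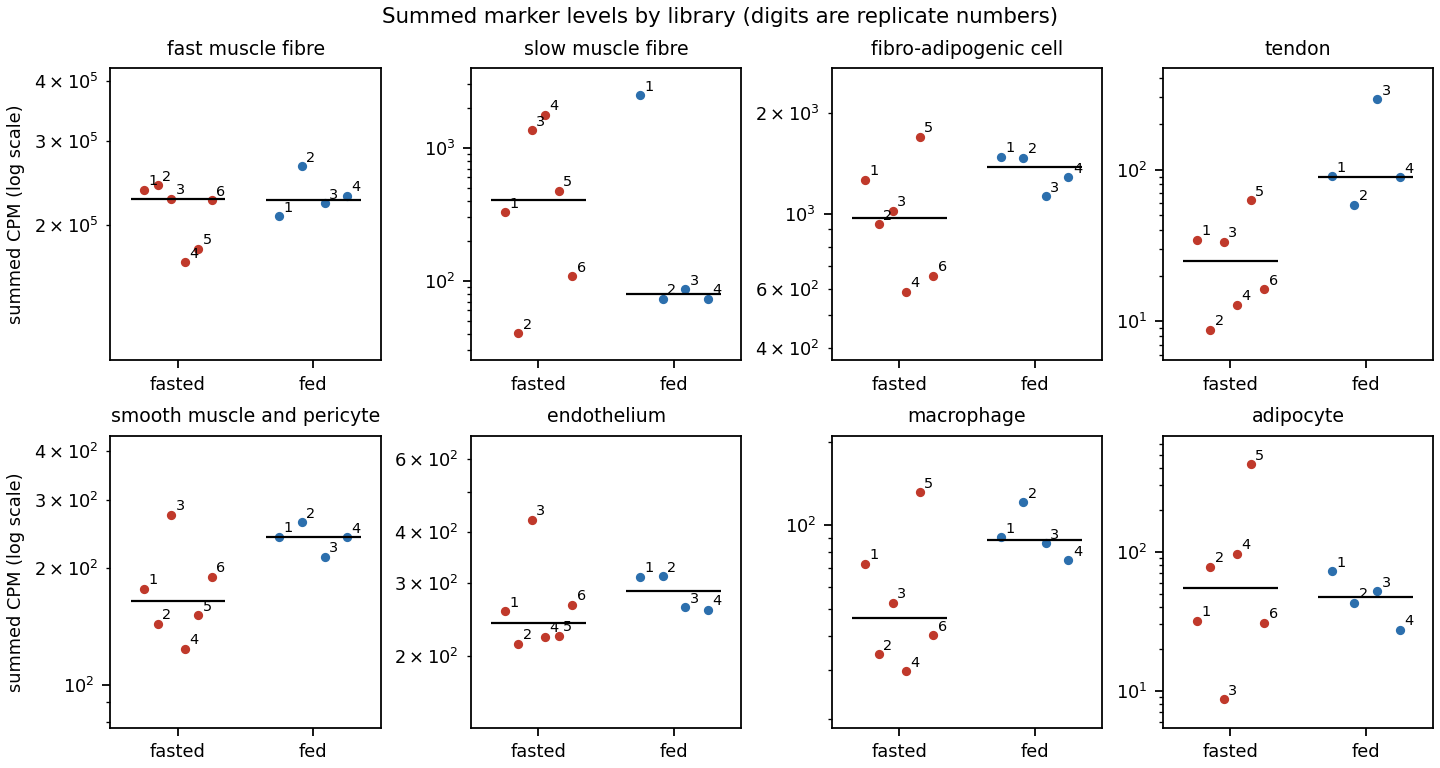
Summed CPM (log scale, plain library sizes) of 8 marker lists in fasted (red, left) and fed (blue, right) libraries; digits are replicate numbers and bars group medians. Fast-fibre sums overlap between the groups, tendon sums are low in fasted libraries except in library 5, and slow-fibre sums vary between 40.4 and 2480 CPM with no order by feeding state.

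Actin cytoskeleton genes under MRTF and SRF fell in 12 of 30 cases and rose in 2. Acta2 (-0.92) and Myl9 (-0.61), which fell, are also smooth muscle and pericyte markers. For genes of cells other than the fibre, fewer cells and less RNA per cell cannot be told apart in bulk muscle. Mrtfa, a coactivator that carries actin's signal to SRF, lay between 4.92 and 8.94 CPM in fasted libraries (median 7.53), against 49.6, 64.1, 36.1 and 47.4 CPM in fed libraries (-2.82 ± 0.18, adjusted p = 6.31e-12). Actg1 (cytoplasmic gamma-actin) lay between 63.1 and 103 CPM in fasted libraries (median 102), against 233, 264, 208 and 227 CPM in fed libraries (-1.34 ± 0.17). Actb (-0.89), Tpm4 (-1.15), Flna (-0.88) and Srf (-0.37) fell, while the sarcomeric actin Acta1 (-0.12) did not pass the test. Ccn1 (1.64) and Junb (1.58) rose. The promoter of Actg1 is shown for its CArG box, the SRF site, in capitals and beginning 90 bases before the start. This box stood in 1.29% of windows of higher genes, 1.86% of lower genes, 1.32% of tested genes and 1.63% of all windows.
Actg1, chr11:120348496-120348745, minus strand: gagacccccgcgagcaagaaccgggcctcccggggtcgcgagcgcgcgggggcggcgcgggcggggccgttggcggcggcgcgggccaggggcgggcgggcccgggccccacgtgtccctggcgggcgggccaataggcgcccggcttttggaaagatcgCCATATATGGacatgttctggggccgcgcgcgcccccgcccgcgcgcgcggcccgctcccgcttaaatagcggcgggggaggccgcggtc

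The contractile apparatus gave few calls. Of 35 sarcomere and fibre-type genes, 1 rose: Tcap (telethonin), which caps titin at the Z-disc, lay between 1370 and 1712 CPM in fasted libraries (median 1529), against 979, 795, 794 and 868 CPM in fed libraries (0.83 ± 0.13, adjusted p = 1.34e-05). No member fell in edgeR or DESeq2, 3 were lower at an unadjusted p under 0.05, and limma voom called 2 lower. The fast myosins Myh4 (0.00) and Myh1 (0.02) and Ttn (0.34) did not pass the test. Slow-fibre genes varied too widely between libraries for a missing call to show a lack of change. The slow myosin Myh7 ran between 0.959 and 598 CPM in fasted and 1.15 and 954 CPM in fed libraries (plain library sizes). Calcium handling and excitation genes, by contrast, fell in 14 of 37 cases and rose in 1. Calm2, a calmodulin gene, fell by 1.30 on the log2 scale, and Kcnc1, a voltage-gated potassium channel, lay between 32.5 and 62.5 CPM in fasted libraries (median 46.2), against 110, 101, 74.7 and 91.8 CPM in fed libraries (-1.06 ± 0.14). Casq1, the calcium-binding protein of the sarcoplasmic reticulum, fell by 0.65 on the log2 scale. The triad genes Stac3 (-0.71) and Jph2 (-0.70) and the chloride channel Clcn1 (-0.48) fell, and the release channel Ryr1 (0.28) and pump Atp2a1 (0.21) did not pass.

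Among myogenic factors and neuromuscular junction genes, 6 of 29 fell and 3 rose. Myod1, the master regulator of muscle identity, lay between 5.68 and 7.99 CPM in fasted libraries (median 6.89), against 32.7, 30.5, 24.3 and 25.2 CPM in fed libraries (-2.06 ± 0.17, adjusted p = 4.19e-10). Its relatives Myog (-0.38) and Myf6 (0.23) did not pass the test. Six4 rose by 0.71 ± 0.14. In the purine and creatine list, 5 of 16 fell and 2 rose: the AMP deaminase of fast muscle, Ampd1, lay between 538 and 980 CPM in fasted libraries (median 644), against 833, 914, 1318 and 1388 CPM in fed libraries (-0.70 ± 0.16), and its paralog Ampd3 rose (0.84 ± 0.23). Without fed library 2, or without fasted libraries 4 and 6, 2 members of that list were lower, and without fed library 4, 3.

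Of 27 secreted factors, 8 were lower and 1 was higher (Angptl4). Vegfa, the main angiogenic factor of muscle, lay between 105 and 135 CPM in fasted libraries (median 115), against 229, 190, 221 and 213 CPM in fed libraries (-0.86 ± 0.12, adjusted p = 6.36e-06). Apln (apelin, -1.99 ± 0.46), Gdf11 (-1.32), Metrnl (-1.13) and Ostn (musclin, -1.07) fell. Apln lay at only 0.0982 to 0.671 CPM in fasted libraries, so the size of its fall is uncertain. In the BMP and TGF-beta list, 5 of 27 rose and 4 fell. Smad3, a TGF-beta signal transducer, lay between 27.0 and 41.2 CPM in fasted libraries (median 32.8), against 78.0, 83.8, 93.3 and 70.7 CPM in fed libraries (-1.29 ± 0.12, adjusted p = 6.46e-09). Tgfb2, a ligand, fell by 1.17 on the log2 scale, whereas the receptors Acvr1b (0.99), Tgfbr1 (0.59) and Bmpr1b (1.10) rose. Interferon-stimulated genes were lower in 9 of 35 cases and higher in none, also before adjustment and by both DESeq2 and limma voom. Bst2 (tetherin), at 3.22 to 6.54 CPM in fasted libraries (median 4.70), against 7.17, 9.48, 9.95 and 10.4 CPM in fed libraries, fell by 0.96 on the log2 scale. In Gbp3 (-1.27 ± 0.31), a guanylate-binding protein, the groups overlapped through fasted library 1 and fed library 1. Mitochondrial ribosome and import genes gave 1 higher (Mrpl9, 0.41 ± 0.10) and 4 lower of 49, and the lower count was 1 without fed library 3 or 4, 8 without fed library 2 and 10 in limma voom.

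After juvenile CD the same contrast, over the other 10 libraries, gave 1469 genes higher (12.0%) and 1266 lower (10.4%). Of the genes higher after juvenile HFD, 1059 were also higher after juvenile CD, which is 73.9% of the HFD and 72.1% of the CD calls. Of the lower genes, 794 were shared, 67.0% of the HFD and 62.7% of the CD calls, and none was called in opposite directions. The comparisons share no library, and over all tested genes their log2 fold changes had a Pearson correlation of 0.769, across genes that are not independent of each other. Trim63 rose by 3.58 ± 0.20 after either juvenile diet.

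The difference between the 2 responses was tested directly. No gene passed in edgeR (smallest adjusted p 0.723). An unadjusted p under 0.05 was found for 300 genes (2.46%), fewer than the about 5% that chance gives at this threshold. Limma voom called none and DESeq2 2, Cyp26b1 and Plg. The DESeq2 difference for Plg was 23.55 (SE 3.55) on the log2 scale, too large to read as a fold change. For Cyp26b1 the fasted libraries lay between 4.99 and 14.1 CPM after juvenile HFD, against 2.30, 0.603, 1.16 and 0.349 CPM in fed libraries, whereas after juvenile CD the change was -0.89 ± 0.45. The difference was 3.83 (95% interval 2.36 to 5.29, adjusted p = 0.723), past the threshold in DESeq2 (adjusted p = 0.00128) and without CD fed library 4 (adjusted p = 0.0350). Klf10, a TGF-beta-induced transcription factor, rose by 2.09 ± 0.18 after juvenile HFD and by 0.99 ± 0.17 after juvenile CD, a difference of 1.09 (0.61 to 1.58). Fbp2 rose by 0.97 ± 0.14 after juvenile HFD and by 1.61 ± 0.14 after juvenile CD, a difference of -0.64 (-1.01 to -0.27). Cdc14a (1.12), 6230400D17Rik (-1.48) and Gm7160 (-2.45) were the other genes with the smallest unadjusted p, and none of these 5 passed. Cyp26b1 and these 5 genes were chosen for the smallest unadjusted p of the difference. That their intervals leave out 0 follows from this choice and is no result, and the choice also favours differences estimated as too large. Without HFD fed library 3, whose Ucp3 was the highest of the 4 HFD fed libraries, the difference in Ucp3 did pass, at 1.45 ± 0.22 (adjusted p = 0.00591), against 0.93 (0.24 to 1.62) with all libraries.

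**Figure D5:**
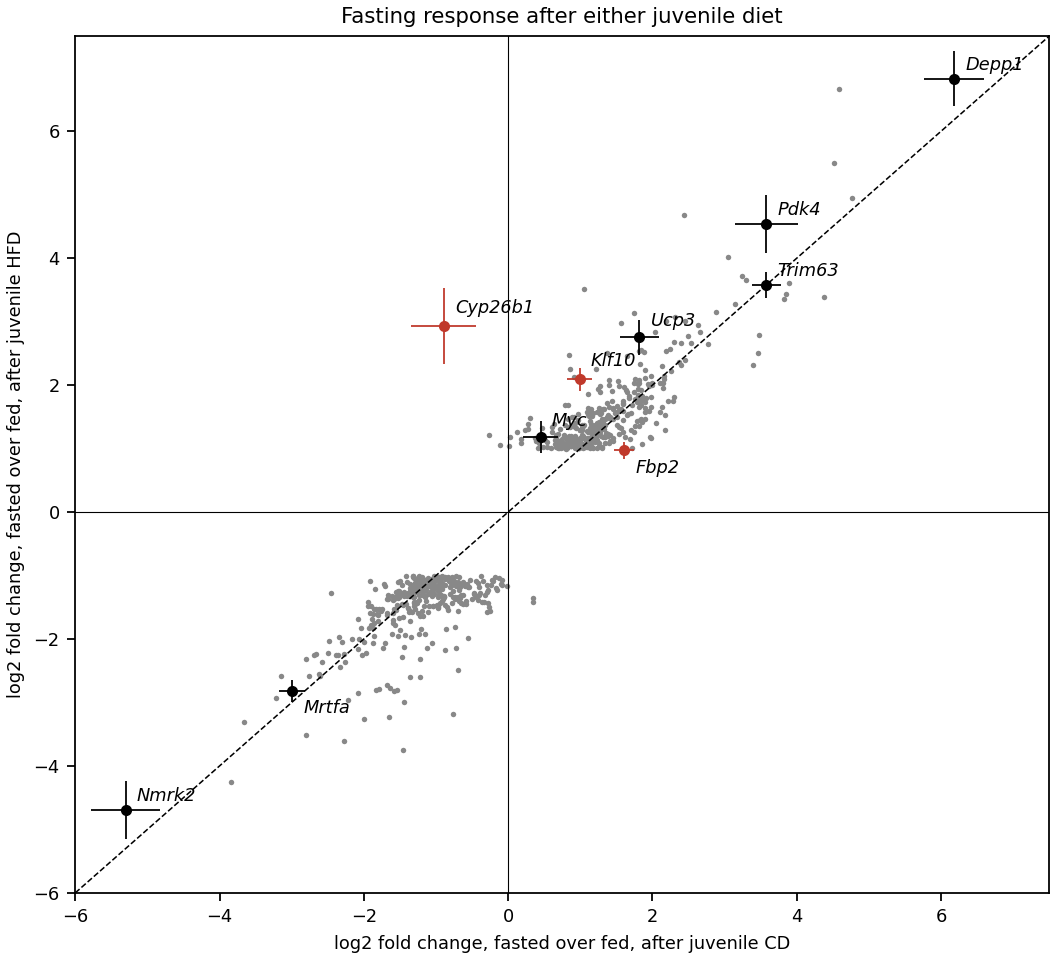
Log2 fold change (fasted over fed) after juvenile HFD (vertical) against that after juvenile CD (horizontal) for the genes called and changed more than 2-fold after juvenile HFD (grey), with 10 genes marked with SE bars; the dashed line is equality. Points were chosen on the vertical values, so they lean away from the line; Cyp26b1 (2.93 against -0.89) lies farthest from it among the marked genes.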

How the data were processed

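The 20 quadriceps count files were used; 19 eWAT files were not. Reads were counted per gene by the authors. HTSeq 0.6.0, TopHat2 2.1.0 and Bowtie2 2.2.5 are named, per the submitters' processing notes, beside build GRCm38; for strand setting and annotation release, nothing is given in the sources used here. The deposited counts are whole numbers without normalization. Rows of reads not assigned to a gene (60.1% to 79.6% of listed reads in the 10 HFD libraries) were left out. Symbols and positions came from GENCODE M21 (1-based). Reads carried no molecular identifiers.

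The 20 libraries were fitted together in edgeR 4.0.16 (R 4.3.3; filterByExpr, TMM, robust quasi-likelihood, 1 mean per group, two-sided tests), and the model was tested on simulated data. Alternatives used DESeq2 1.42.0, limma 3.58.1 voom and other settings; 2 were added after seeing the data (fasted libraries 4 and 6 left out together; the last 4 HFD barcode numbers as a covariate). Members, lists and tests were chosen with earlier results of these data known. Genes were named by rule: the 15 largest changes per direction among called protein-coding genes averaging 2 or more on the log2 CPM scale and no overlap between groups, up to 2 members with the smallest p per list, and the 3 smallest interaction p per direction; some of them are not reported here. Replicate numbers only name libraries.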

Additional observations from a re-analysis of the deposited data

Results flagged for a closer look

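Among the 110 genes selected by rule or choice, 220 groups of 4 or 6 HFD libraries were screened for a library whose gap to its nearest neighbour takes an unusually large share of the group's range (Dixon's 95% limit). It marked 12 of them, 5.45%, where chance gives about 5%. Fed library 3 was marked 5 times, always as the highest of the 4 fed libraries: Fmod at 148 CPM (the others 26.9 to 44.4), Chad at 27.8 (2.24 to 4.45), Col1a1 at 270 (131 to 152), Odc1 at 177 (57.4 to 74.4) and Cited4, a transcriptional coactivator, at 11.8 (7.96 to 8.55). The same library had the highest tendon marker sum, 292 CPM, and the part of that sum in these values was not tested. Fasted library 6 was marked 4 times, with Cish at 11.9 CPM (the others 2.22 to 5.25), Nadk2 at 35.4 (23.8 to 28.0), Rbl2 at 139 (92.6 to 108) and, as the lowest, Rpl13 at 154 (236 to 259). The last 3 were Depp1 at 4.16 CPM in fed library 1 (2.07 to 2.40), Ky at 138 in fasted library 2 (34.7 to 71.5) and Gbp3 at 3.73 in fasted library 1 (1.08 to 1.86).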

How the results depend on the processing

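Under every alternative run, no gene called in fasted against fed quadriceps changed direction, and the counts kept within 1.5 times their main value: after juvenile HFD, 1285 to 1677 genes were higher and 858 to 1472 lower, and leaving out 1 library gave 1179 to 1451 higher and 919 to 1139 lower. After juvenile CD, leaving out 1 library gave 1174 to 1418 higher and 957 to 1176 lower. For the difference between juvenile diets, DESeq2 called 2 genes, of which Plg had a log2 value too large to read as a fold change. With 1 library left out, edgeR called between 0 and 1. Of 1840 list counts under alternatives, 144 moved by more than 1.5 times, mostly counts of 0 to 2. Among named genes, calls on Fmod, Chad, Igf1, Ndufb7, Mrpl12 and 6230400D17Rik were lost under at least 1 alternative; without fasted libraries 4 and 6, Fmod stood at -2.28 (adjusted p = 0.0990). The cause was not tested. No paired analysis was possible because the labels give no replicate numbers. Depth limits genes under about 1 CPM, such as Tnmd, at 0 in 2 fasted libraries.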
